A study of Mus musculus with 74 samples.

Results

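LIF withdrawal was examined in mouse ES cells in which a CRISPR activator drove both Nanog and Otx2. The comparison took the Nanog/Otx2 SunTag libraries of the raw count table with Dox, 4 without LIF against 4 with LIF, which are 8 of the 35 RNA-seq libraries with a column and of the 74 samples of the series. The series also holds ChIP-seq and ATAC-seq, which were not used here. RNA was sequenced after 3 days of culture in serum on gelatine, with or without LIF (10 ng/mL) and with or without Dox (1 µg/mL).

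All cells derive from the mouse ES cell line E14Tg2a and carry the rtTA activator. They also carry a Dox-responsive vector that expresses inactive dCas9 with GCN4 epitopes and an antibody fragment fused to GFP and the activator VP64, together called SunTag. Guide RNAs bring this complex to chosen endogenous promoters. The Nanog/Otx2 cells were made by adding an Otx2 guide to cells that already carried a Nanog guide, and 1 clone was kept from each of 2 parental SunTag clones, named C1ON3 and C2ON3. The libraries of each condition with Dox are C1ON3-1, C1ON3-2, C2ON3-1 and C2ON3-2, so that 4 libraries stand for 2 clones. The same cells without Dox gave 3 libraries with LIF (C1ON3-1, C1ON3-2 and C2ON3-1) and 4 without LIF. Cells with the Nanog guide only gave 2 libraries with LIF and Dox and 3 without LIF with Dox. Every group carries the SunTag vector and at least the Nanog guide, the groups without Dox included.

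LIF is a cytokine that binds the receptor chains Lifr and Il6st, activates the kinase Jak1 and sends the transcription factor Stat3 to genes of the naive pluripotency network, such as Klf4, Tfcp2l1 and the feedback inhibitor Socs3. Nanog is a homeobox factor of that network whose overexpression lets ES cells self-renew without the cytokine. Otx2 is a homeobox factor of the next step, the formative epiblast, where genes such as Fgf5 and Dnmt3b come on while naive genes go off.

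The sequences where the activator was placed show which promoters Dox acts on. The Nanog guide matches mm9 at chr6:122657269-122657288 on the plus strand, in the promoter, 229 bases upstream of the nearest annotated Nanog start and outside any exon of the gene. The first base of this guide is not in the genome, and its other 20 bases match. The Otx2 guide matches chr14:49282649-49282668 on the minus strand, 111 bases upstream of the start of transcript Otx2-003. It lies inside the span of the gene, since longer transcripts start further away, but in no exon. Each target is printed 5′ to 3′ on its own strand with its NGG motif in capitals.
Nanog: cttcccactagagatcgccaGGG
Otx2: aatgtagagcgtgcatttggAGG

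Libraries held 17725333 to 50629802 counts with LIF and Dox and 21937288 to 42353701 without LIF with Dox. Without Dox the range was 6107512 to 86864360, and the C2ON3 library with LIF and without Dox was the shallowest. The summed normalised counts (counts divided by the library's size factor) of 5 ES cell markers were 65262 to 71301 with LIF and 69394 to 77512 without it. Sums of extraembryonic endoderm, trophoblast and fibroblast markers were 1097 or lower in all 8 libraries, and no marker was at 0 in all of them. The marker sum of trophoblast was 71.7 to 144 with LIF and 147 to 240 without it, and that of 2-cell-like cells was 858 to 1630 and 495 to 729. The part of rare cell types in the results was not tested, and in bulk libraries fewer cells of a type and less RNA per cell cannot be told apart.

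Nanog was not measurably changed by LIF withdrawal under Dox. Its normalised counts were 45942, 48558, 40628 and 41133 in the libraries with LIF and 48470, 42572, 35379 and 31697 in those without it. The groups overlapped, and the fitted log2 fold change of -0.17 ± 0.30 (± gives the standard error throughout) did not pass edgeR's test (adjusted p = 0.70). In the fit of clone C2ON3 alone it fell by 0.30 (adjusted p = 0.018). Without Dox, Nanog fell from between 18320 and 20533 to between 1974 and 6867, by 2.17 ± 0.33 on the log2 scale (adjusted p = 7.0e-05). The difference between these responses was 2.00 ± 0.44 (adjusted p = 0.010).

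Otx2 rose further when LIF was withdrawn, although the guide had already raised it. Its normalised counts were 3806, 3546, 3471 and 3214 with LIF and Dox and 7347, 7311, 6827 and 7206 after LIF withdrawal with Dox. Every library without LIF stood above every library with LIF, with a log2 fold change of 1.02 ± 0.13 (adjusted p = 4.0e-05). Without Dox, Otx2 rose from 736 to 1062 up to 3372 to 5148 (log2 fold change 2.04 ± 0.16, adjusted p = 8.4e-08), and the response with Dox was smaller by 1.02 ± 0.20 (adjusted p = 0.0048). Otx2 was therefore not level across the 2 LIF settings with Dox.

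**Figure D1:**
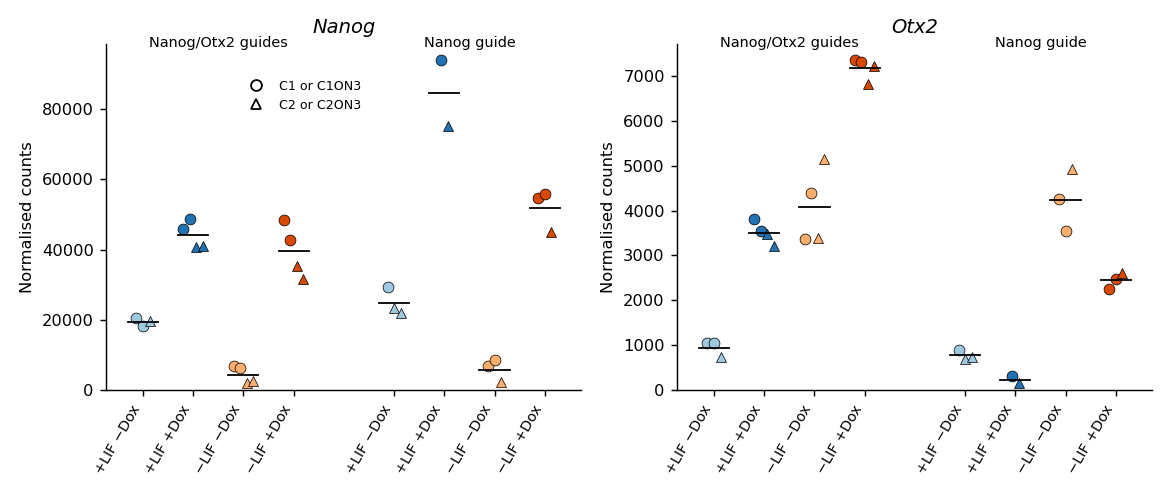
Normalised counts of Nanog and Otx2 (linear axes) in each library by LIF and Dox, for cells with both guides (left groups) and with the Nanog guide (right groups). Points are libraries, circles from C1 or C1ON3 and triangles from C2 or C2ON3, and bars are group means; Nanog overlaps between +LIF +Dox and −LIF +Dox in cells with both guides, where Otx2 does not.

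With Nanog and Otx2 induced, LIF loss changed 5699 of 15609 genes tested (36.5%), of which 2912 (18.7%) rose and 2787 (17.9%) fell, at an adjusted p under 0.05. Of these, 1946 changed at least 2-fold, 977 up and 969 down, and the median log2 fold change over all tested genes was -0.01. The 4 and 4 libraries did not overlap for 5051 of the called genes (88.6%) and for 5831 of all tested genes (37.4%). Fitted alone, clone C1ON3 gave 4966 called genes and clone C2ON3 5921. They shared 3773 calls, which are 78.0% of the first and 65.1% of the second, and 3770 of these had the same direction.

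Genes of the LIF receptor and STAT3 pathway included Socs3 and Bcl3, which were among the 10 largest falls named by the rule. Of 19 tested genes of 20 listed (Osmr was too low to test), 9 fell and 2 rose, with a median of -0.57, where 36.5% of all tested genes were called. Socs3, the feedback inhibitor of the receptor, had normalised counts of 1696, 3255, 2162 and 3674 with LIF and 27.02, 45.5, 49.5 and 59.2 without it. The fitted level was 59.3-fold lower, a log2 fold change of -5.89 ± 0.33 (adjusted p = 1.3e-08). The library lowest with LIF, C1ON3-1, was also the lowest without it.

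Bcl3, a co-regulator of NF-kappaB that Stat3 induces, fell by 4.01 ± 0.22 (adjusted p = 1.2e-08), from 349, 448, 409 and 420 to 25.2, 26.9, 25.4 and 24.3. The 4 libraries without LIF lay within 3 normalised counts of each other. Stat3 itself, which induces its own gene, stood at 2863, 3095, 3056 and 2938 with LIF and at 759, 703, 801 and 750 without it and so fell by 2.00 ± 0.08 (adjusted p = 1.5e-09). Junb, an AP-1 factor, fell by 1.57 ± 0.35 (adjusted p = 0.0025) and the kinase Pim3 fell by 1.09 ± 0.09 (adjusted p = 7.7e-07). The receptor chain Lifr fell by 0.71 ± 0.17 (adjusted p = 0.0045), whereas its partner Il6st changed by -0.21 ± 0.11, which did not pass (adjusted p = 0.16) but did in a fit of the 8 libraries with Dox with the replicate block, at -0.20 (adjusted p = 0.028). The 1716, 1607, 1615 and 1652 normalised counts of Il6st with LIF did not overlap the 1327, 1520, 1531 and 1390 without it.

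No effect of Dox on the fall of Socs3 was detected, while other members fell less with Dox. The response of Socs3 differed by -0.30 ± 0.43 between the settings (adjusted p = 0.77), with 84.3, 71.3, 76.6 and 51.2 normalised counts in the −LIF −Dox libraries. Lifr fell by 2.12 ± 0.25 less with Dox than without it (adjusted p = 0.00018), Il6st by 1.07 ± 0.16 less (adjusted p = 0.0010) and Stat3 by 0.65 ± 0.12 less (adjusted p = 0.0031). For 6 of the 19 members the response was higher with Dox by this test and for none lower, where 9.7% of all tested genes were called.

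Naive pluripotency factors fell as well, but less far than in cells without Dox. Of 19 tested members of 20 (Sp5 was too low), 16 fell and none rose with Dox, with a median log2 fold change of -1.48. Over all tested genes 36.5% were called with Dox and 17.9% fell. Without Dox all 19 fell, with a median of -3.98, where 49.8% of all genes were called. The difference between the settings was called for 14 of the 19, each time with the higher value with Dox, where 9.7% of all tested genes were called. Each response is relative to the level with LIF in the same Dox setting, and these starting levels differed. Klf2 had 1163 to 2028 normalised counts with LIF and Dox and 3694 to 4131 with LIF and without Dox. Tbx3 went the other way, with 5493 to 7589 and 2707 to 4083.

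Esrrb, an orphan nuclear receptor that Nanog activates, stood at 18084, 16111, 17605 and 15800 normalised counts with LIF and Dox and at 4925, 5388, 5808 and 4914 after LIF withdrawal. The 2 groups were well apart, and Esrrb kept 31.1% of its mean level with LIF (log2 fold change -1.70 ± 0.09, adjusted p = 1.1e-08). Without Dox it kept 3.45% of it, with 562 to 720 normalised counts after withdrawal. The response with Dox was higher by 3.19 ± 0.13 (adjusted p = 3.5e-09).

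Zfp42, also called Rex1, a marker of naive cells, had 17768, 17653, 17612 and 17188 normalised counts with LIF and 6711, 9740, 10236 and 9005 without it. Relative to its mean with LIF in the same Dox setting, it kept 50.8% with Dox and 5.13% without Dox. The log2 responses differed by 3.33 ± 0.18 (adjusted p = 8.7e-08). The level with LIF was itself lower with Dox, since Zfp42 had 27969, 25132 and 27136 normalised counts with LIF and without Dox. Of Klf4, Tfcp2l1 and Tbx3, naive transcription factors downstream of LIF and other inputs, Klf4 fell to 440, 350, 641 and 506 from 5726, 4108, 5911 and 4425. That left 9.60% of its mean, against 3.31% without Dox. Tfcp2l1 fell by 3.13 ± 0.30 (adjusted p = 1.9e-06) and Tbx3 by 2.46 ± 0.28 (adjusted p = 1.1e-05). Their falls were smaller with Dox by 2.11 ± 0.41 and 2.10 ± 0.41 (adjusted p = 0.0046 for both), and that of Klf4 by 1.56 ± 0.34 (adjusted p = 0.0098).

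The remaining naive factors followed the same order. Klf2, Prdm14, Tet2, Fbxo15 and Tcl1 had log2 fold changes between -1.21 and -2.16 with Dox and between -3.83 and -4.97 without it, all called, and Klf5 and Mybl2 fell by 0.98 and 0.59 with Dox. Nr0b1 stood at 2060, 2092, 1187 and 933 with LIF and at 921, 1255, 927 and 861 without it, so that the groups overlapped. Its log2 fold change of -0.67 ± 0.26 did not pass (adjusted p = 0.052), and with the replicate block it did (adjusted p = 0.011). It also passed without the C2ON3-1 or the C2ON3-2 library with LIF or without the C1ON3-2 library without LIF (adjusted p = 0.040, 0.014 and 0.041).

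**Figure D2:**
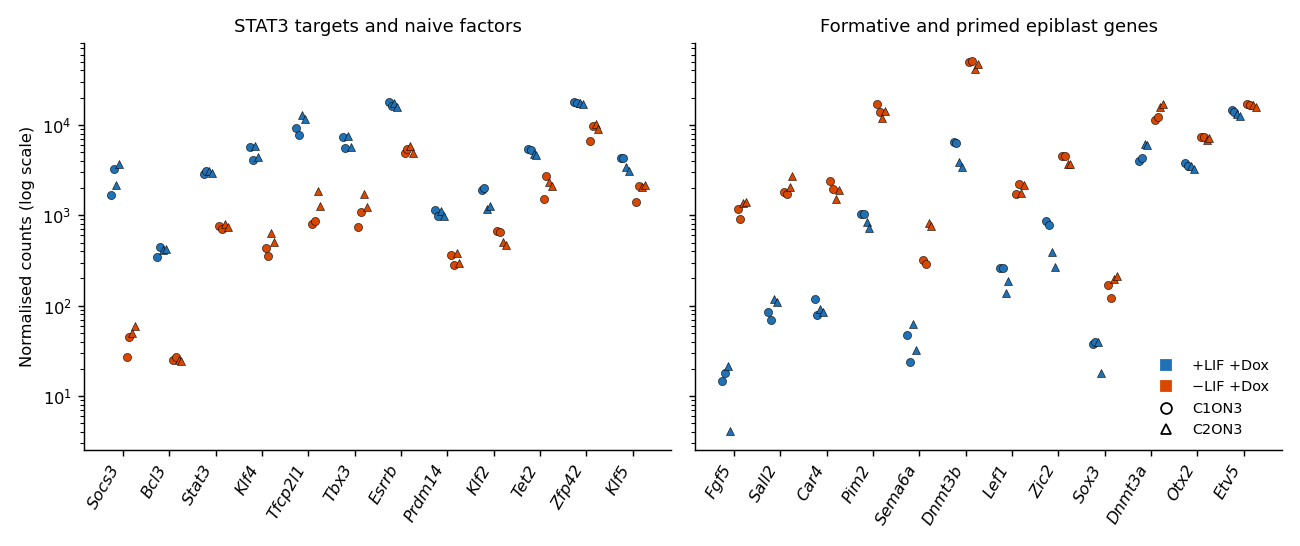
Normalised counts (log axis) of STAT3 targets and naive factors (left) and of formative and primed epiblast genes (right) in the 4 libraries with LIF and Dox (blue) and the 4 without LIF with Dox (orange); circles are C1ON3 and triangles C2ON3. Every gene drawn at the left is lower and every gene drawn at the right higher in all 4 libraries without LIF.

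Formative genes rose, with list medians close to each other with and without Dox. Of 23 tested members (Otx2, the target of a guide, included), 21 rose with Dox and none fell, with a median of 2.16. Over all tested genes 36.5% were called with Dox and 18.7% rose. Without Dox 20 rose and 2 fell, with a median of 2.04, where 49.8% of all tested genes were called. The difference was called for 6, of which 4 were higher and 2 lower with Dox, where 9.7% of all tested genes were called.

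Fgf5, the FGF ligand that marks the formative epiblast, had 14.6, 18.1, 21.5 and 4.07 normalised counts with LIF and 1172, 915, 1371 and 1405 without it. The log2 fold change of 6.52 ± 0.34 (adjusted p = 1.1e-08) was the largest rise named by the rule. Dnmt3b, a de novo DNA methyltransferase, rose from 6511, 6329, 3914 and 3427 to 49578, 50608, 41328 and 46965, and the C2ON3 libraries were the lower ones with LIF. Its log2 fold change was 3.21 ± 0.28 (adjusted p = 9.3e-07), and its response without Dox, 3.38 ± 0.32, differed by -0.16 ± 0.38 (adjusted p = 0.88).

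Sall2, a zinc finger factor, rose by 4.38 ± 0.24 and Car4, a carbonic anhydrase, by 4.36 ± 0.18 (adjusted p = 1.2e-08 and 1.5e-09). Pim2, a kinase, rose by 3.97, Sema6a, a semaphorin, by 3.68, Zic2 by 2.84, Sox3 by 2.43 and Dnmt3a by 1.46. Lef1, a nuclear partner of beta-catenin, rose from 262, 261, 139 and 187 to 1720, 2198, 1753 and 2168, and its rise with Dox was larger by 1.33 ± 0.29 (adjusted p = 0.010). Without Dox it stood at 577, 622 and 389 with LIF and at 1554, 1938, 2148 and 2540 without LIF. The Lef1 levels without LIF thus overlapped between the Dox settings, while those with LIF were lower with Dox. Etv5, an ETS factor of the ERK pathway, stood at 14514, 13990, 13243 and 12542 with LIF and at 16814, 16641, 16388 and 15586 without it. It rose by 0.26 ± 0.07 with Dox (adjusted p = 0.0083) and fell by 0.46 ± 0.07 without Dox (adjusted p = 0.00012). Nodal, a TGF-beta ligand, changed by -0.03 ± 0.13 with Dox (adjusted p = 0.86), and the inhibitor Fst rose by 1.04 ± 0.25 (adjusted p = 0.0047).

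No core pluripotency factor passed the test as lower. Pou5f1, which encodes Oct4, stood at 40524, 43522, 40810 and 39698 with LIF and at 37935, 36346, 41073 and 41009 without it, a log2 fold change of -0.09 ± 0.07 (adjusted p = 0.40). The groups overlapped, as they did for Sox2, whose change of -0.26 ± 0.17 did not pass (adjusted p = 0.26) but did in clone C1ON3 alone, at -0.40 (adjusted p = 0.028), and in the 8 libraries with Dox with the replicate block (adjusted p = 0.014). Lin28a, an RNA-binding protein, rose by 0.88 ± 0.11 (adjusted p = 1.8e-05), and Utf1 rose by 0.59. Of 8 members 4 rose and none fell, with a median of 0.54, where 36.5% of all tested genes were called. Without Dox, Sox2 fell by 0.87 ± 0.18 (adjusted p = 0.0011), and the difference was not called (adjusted p = 0.16), while with the replicate block it was.

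By the rule for the largest changes, genes among the 10 that fell most were Socs3, Serpinb1a, Igfbp7, Trpm1, 2310043M15Rik, Bcl3, Mapt, Tfeb and Ak7. Their log2 fold changes were between -3.66 and -5.89, and they included Mapt, which encodes the microtubule protein tau, and Tfeb, a lysosomal transcription factor. The 10 that rose most were Fgf5, Enpp2, Col14a1, Zfp608, Actc1, Car14, Spon1, Sall2, Car4 and Cxcl12.

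Of these, Enpp2, which encodes the lysophospholipase autotaxin, rose by 5.75 ± 0.41 (adjusted p = 1.4e-07) and Cxcl12, a chemokine, by 4.26 ± 0.22 (adjusted p = 1.1e-08). Col14a1, a fibril-associated collagen, stood at 7.31, 9.05, 9.36 and 12.2 with LIF and at 573, 546, 176 and 146 without it, with the C1ON3 libraries the higher ones. It rose by 5.17 ± 0.59 (adjusted p = 1.0e-05). Without Dox it had 7.79 to 39.6 normalised counts after withdrawal, and its response with Dox was higher by 4.54 ± 0.85 (adjusted p = 0.0038).

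Neural genes moved in both directions. Of 17 tested of 30 listed, 6 rose and 3 fell, with a median of 0.31, where 36.5% of all tested genes were called. Sox11 rose from 56.4, 69.3, 48.7 and 54.4 to 450, 435, 477 and 636 (log2 fold change 3.13 ± 0.21, adjusted p = 9.1e-08), and Pax6, a homeobox gene of neural progenitors, rose by 1.51 ± 0.44 (adjusted p = 0.015). Ncam1, a neural adhesion molecule, fell by 1.97 ± 0.17 (adjusted p = 8.1e-07), and Tubb3, a neuronal tubulin, fell by 0.79 ± 0.12. Of 13 mesendoderm genes tested of 20 listed, 5 rose and 3 fell (median 0.23). Among the 3 was the homeobox gene Cdx1, which fell by 2.68 ± 0.43 (adjusted p = 0.00022), at low levels. It had 21.9, 18.1, 28.1 and 33.6 normalised counts with LIF and 4.66, 1.17, 6.34 and 3.95 without it. Tbx6 of the same list stood at 23.0, 15.1, 20.6 and 18.3 with LIF and at 35.4, 39.7, 31.7 and 49.3 without it.

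Of 17 extraembryonic endoderm genes tested of 20 listed, 1 rose and 4 fell (median -0.48), a share no larger than the 36.5% of all genes, and Lama1, a laminin chain, fell by 1.95 ± 0.30 while Lamb1 rose by 0.86 ± 0.08. The factor Hnf4a fell by 1.61 ± 0.29 (adjusted p = 0.00054). Of 11 trophoblast and simple-epithelial genes tested of 16 listed, 4 rose and 2 fell (median -0.17). Krt18 and Krt8, keratins of simple epithelia, rose by 1.67 ± 0.20 and 0.95 ± 0.18, and their rise without Dox was larger, with differences of -1.39 ± 0.30 and -0.998 ± 0.270 (adjusted p = 0.0089 and 0.030). Tfap2c, an AP-2 factor, fell by 2.36 ± 0.26 (adjusted p = 8.4e-06).

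Of 12 germ cell genes, 5 fell and none rose (median -0.95). Over all tested genes 36.5% were called in either direction and 17.9% fell. Among those that fell was Dazl, an RNA-binding protein of germ cells, at 1518, 1682, 1910 and 2650 with LIF and 361, 593, 834 and 887 without it. Stra8, a meiosis gene, fell by 2.25 ± 0.45 (adjusted p = 0.0012). Of 5 markers of 2-cell-like cells tested of 10 listed, 3 fell, with Zscan4c at -1.08 ± 0.29 (adjusted p = 0.0097).

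Members of the FGF, Wnt and BMP lists moved in both directions, where 36.5% of all tested genes were called. Of 19 FGF and ERK genes tested of 20 listed, 11 rose and 3 fell (median 0.44): the inhibitor Spry1 rose by 1.68 ± 0.23 and the phosphatase Dusp4 by 1.10 ± 0.17, while the inhibitor Spry2 fell by 1.28 ± 0.16 and the early gene Egr1 by 1.42 ± 0.35. Of 13 Wnt genes tested of 16 listed, 6 rose and 2 fell (median 0.62). The receptor Fzd2 rose from 51.2, 57.3, 47.7 and 47.8 to 809, 658, 600 and 854, Fzd7 rose by 2.02 ± 0.33, and the receptor Fzd5 fell by 1.77 ± 0.26. Porcn, which lipid-modifies Wnt ligands, stood at 930, 926, 608 and 462 with LIF and 1056, 1124, 917 and 764 without it, and the change of 0.39 ± 0.21 did not pass (adjusted p = 0.16), although it passed with the replicate block (adjusted p = 0.0067) and in clone C2ON3 alone, at 0.64 (adjusted p = 0.0096). Without Dox Porcn fell by 2.16 ± 0.24 (adjusted p = 3.2e-06), and its response with Dox was higher by 2.55 ± 0.32 (adjusted p = 0.00021). Of 10 BMP targets, 3 rose and 2 fell (median 0.30), Id2 among the former at 1.34 ± 0.29 and the ligand gene Bmp4 among the latter at -0.94 ± 0.17.

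Among regulators of chromatin and the cell cycle, 5 of 9 DNA methylation enzymes rose and 2 fell (median 0.26). The dioxygenases Tet1 and Tet2 fell by 0.73 ± 0.12 and 1.21 ± 0.15, and the maintenance enzyme Dnmt1 changed by 0.06 ± 0.07 (adjusted p = 0.50). Of 11 PRC2 genes tested of 12 listed, 1 rose and 3 fell (median 0.01), a share like the 36.5% of all genes, with Eed at -0.69 ± 0.11 and Mtf2 at -0.45 ± 0.10. Of 14 genes of the Myc family and G1, 4 rose and 2 fell (median 0.22). The D-type cyclins, which start the cycle, moved apart: Ccnd2 rose from 91.9, 133, 126 and 173 to 489, 980, 1209 and 1331, Ccnd1 rose by 0.92 ± 0.11, and Ccnd3 fell by 1.08 ± 0.11. Ccnd2 changed by 0.28 ± 0.39 without Dox (adjusted p = 0.58), a difference of 2.63 ± 0.53 (adjusted p = 0.0055). With LIF, its unnormalised counts were 497, 743 and 87 without Dox and 88, 88, 135 and 340 with Dox. The library with 87 was the shallowest, at 6107512 counts. Relative to depth, the Ccnd2 level with LIF was thus lower with Dox, while the levels without LIF overlapped between the Dox settings.

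Of 14 adhesion and epithelial-mesenchymal genes, 7 rose and 4 fell (median 0.31), where 36.5% of all tested genes were called. The cadherin Cdh1 rose by 0.75 ± 0.11, Epcam by 1.52 ± 0.26 and Cldn6, a claudin of tight junctions, by 2.48 ± 0.40. Zeb1, a repressor of Cdh1, fell from 326, 446, 450 and 515 to 43.8, 118, 132 and 136 and Vim, an intermediate filament, fell by 0.93 ± 0.20. The fall of Zeb1 was smaller with Dox by 1.77 ± 0.44 (adjusted p = 0.019). Of 18 genes of glycolysis and pyruvate fate, 9 rose and 4 fell (median 0.30), with the glucose transporter Slc2a1 up by 1.05 ± 0.13 and the phosphofructokinase Pfkp down by 0.69 ± 0.13. The counts over the other lists were 0 up and 2 down of 10 for the Dppa family (median -0.39), 3 up and 2 down of 7 tested of 10 listed for fibroblast genes (median 0.07) and 3 up and none down of 10 for housekeeping genes (median 0.08).

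**Figure D3:**
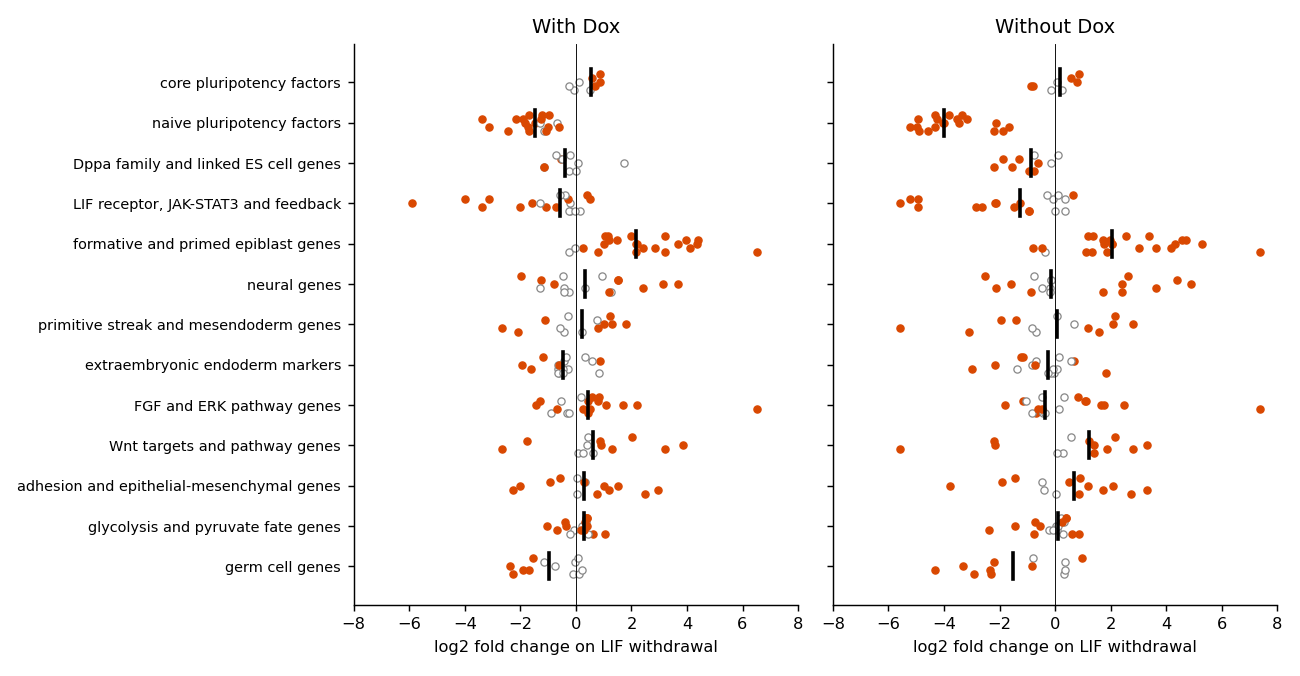
Log2 fold changes on LIF withdrawal with Dox (left) and without Dox (right) of the tested members of 13 gene lists. Filled points passed the test (adjusted p under 0.05), open points did not, and vertical bars are list medians, which for naive factors are -1.48 with Dox and -3.98 without Dox and for formative genes 2.16 and 2.04.

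Over the whole transcriptome, the response to LIF loss was mostly shared between the Dox settings but smaller with Dox. Without Dox 7768 genes were called. Of the genes called in both settings, 4522 had the same direction, which are 79.3% of the calls with Dox and 58.2% of those without it. Over the 15609 genes, which are not independent replicates, the log2 fold changes of the 2 settings had a Pearson correlation of 0.79. The Dox settings have no library in common.

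The difference between the settings was called for 1514 genes (9.7%), with 804 higher and 710 lower, and for 3407 with the replicate block. Without the C1ON3-2 library with LIF and without Dox the count was 875. Of the 1514, 650 were called without Dox but not with it, 103 with Dox but not without it, and 695 in both with the same direction. Of the last, 677 changed less with Dox and 18 changed more. For genes called on LIF withdrawal without Dox in cells with the Nanog guide alone, which are other libraries, the median log2 fold change was 0.52 with Dox and 0.85 without it among the 3081 that rose there, and -0.49 and -0.83 among the 3209 that fell there. These genes were chosen by a response without Dox, which leaves out genes that respond only with Dox. No set chosen by a response with Dox was read, so the medians describe these genes only.

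Another 62 genes went in opposite directions, 36 of them up and 26 of them down with Dox. All 62 were called for the difference, which calls of opposite sign in the same fit make likely beforehand. A mean of 100 normalised counts in the highest group was reached by 31 of the 36 and 8 of the 26. Ryr3 and Shisa2 are given as examples, chosen after their values were seen. Ryr3, an intracellular calcium channel, rose from 91.9, 82.9, 45.9 and 64.1 to 201, 299, 219 and 237 with Dox (log2 fold change 1.75 ± 0.23) and fell by 1.43 ± 0.24 without Dox (adjusted p = 4.5e-05 and 0.00020). With LIF, its unnormalised counts were 442, 502 and 48 without Dox and 88, 55, 49 and 126 with Dox. The library with 48 was the shallowest, at 6107512 counts. Relative to depth, Ryr3 thus started from a lower level with LIF under Dox. Shisa2, an inhibitor of Wnt and FGF receptors, rose by 1.34 ± 0.33 with Dox and fell by 1.36 ± 0.36 without Dox (adjusted p = 0.0054 and 0.0055). The Shisa2 levels with LIF overlapped between the Dox settings.

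By the rule for the largest differences, the response with Dox was lowest relative to that without Dox for Abcc8, Shisa6, Chst1, Calcr and Pde4b. Abcc8, a subunit of potassium channels, changed by 0.56 ± 0.25 with Dox (adjusted p = 0.090) and rose by 4.51 ± 0.39 without Dox. It stood at 39.2 to 99.2 normalised counts with LIF and Dox and at 4.02 to 4.63 with LIF and without Dox. Shisa6 and Pde4b had at most 3 counts in each library with LIF and without Dox and are given no fold of that response. The response was highest relative to that without Dox for Gm5148, Gm17494, Gm16627, Col14a1 and Gjb1. The first 3 are predicted genes that were high in the C2ON3 library with LIF and without Dox, the shallowest one, at 2583, 1954 and 1560 normalised counts, and at no more than 73.1 in the other libraries of that group.

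**Figure D4:**
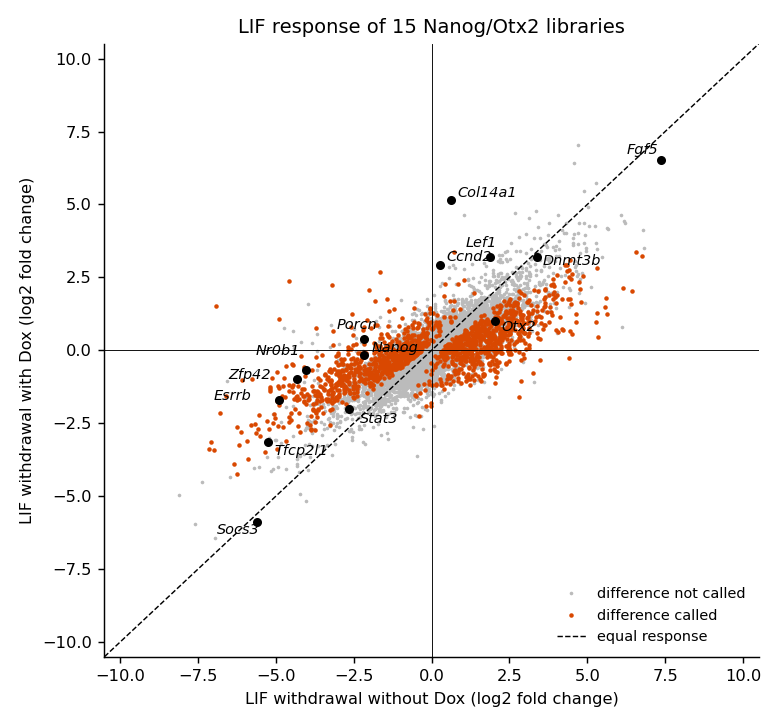
Log2 fold change on LIF withdrawal with Dox (vertical) against that without Dox (horizontal) for the 15609 tested genes; orange points are the 1514 genes called for the difference, the dashed line marks an equal response and named genes are black. Most orange points lie between the dashed line and the horizontal zero line, among them Esrrb and Zfp42, while Socs3 and Dnmt3b lie near the dashed line.

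LIF loss under Dox was also compared with cells that carry the Nanog guide only, 3 libraries without LIF against 2 with LIF. There 5089 of 15624 genes (32.6%) were called, with 2665 up and 2424 down, and 2371 without the C1-1 library with LIF and Dox. The test of the difference between the guide settings called 1986 of 16210 genes (12.3%), with 631 higher and 1355 lower in the Nanog/Otx2 cells. With an offset for GC content the calls were 2315, of which 1021 were higher, with the replicate block 3065, and without that C1-1 library 536. The difference went with gene length (Spearman -0.47) and with GC content (Spearman 0.36), as a description over 14574 genes of the same libraries. In the Nanog cells the LIF response with Dox went with length at 0.44 and with GC content at -0.24. In the Nanog/Otx2 cells these values were 0.16 and 0.04. No offset for length was fitted, so its part in the differences between the guides was not tested. In the Nanog cells the labels give the libraries with LIF and those without LIF different name prefixes, and the sources used here do not say what these mark, so that LIF and whatever they mark cannot be told apart there. All Nanog/Otx2 libraries carry a single prefix, which no library of the Nanog cells has. Guides, clones and whatever the prefixes mark therefore cannot be told apart between these cells, which applies to levels compared between them.

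Otx2 itself showed the contrast between the guides. With Dox it rose from 308 and 166 normalised counts with LIF to 2248, 2484 and 2620 without LIF in the Nanog cells, all below the 3214 to 3806 of Nanog/Otx2 cells with LIF. The rise there was 3.42 ± 0.28 (adjusted p = 4.5e-05), and the response in Nanog/Otx2 cells was lower by 2.44 ± 0.28 (adjusted p = 2.0e-05). Nanog stood at 93813 and 75226 with LIF and at 54732, 55641 and 45041 without it in the Nanog cells, and the change of -0.68 ± 0.39 did not pass (adjusted p = 0.20).

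For several LIF-dependent genes no difference between the guides was detected. The differences were -0.05 ± 0.20 for Esrrb, -0.26 ± 0.41 for Tfcp2l1, -0.28 ± 0.34 for Klf4 and 0.08 ± 0.13 for Stat3, none of which passed (adjusted p = 0.92, 0.73, 0.64 and 0.76). Among naive factors 3 of 19 had a called difference, a share near the 12.3% of all genes, and these were lower in Nanog/Otx2 cells: Zfp42 by 0.84 ± 0.24, Klf5 by 1.00 ± 0.26 and Tet2 by 1.39 ± 0.36 (adjusted p = 0.022, 0.013 and 0.014). Zfp42 was at 11274 and 13862 with LIF and at 11752, 11377 and 9733 without it in the Nanog cells, so the groups overlapped there. It did not pass there (adjusted p = 0.55), whereas it fell in Nanog/Otx2 cells.

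Further genes differed. Tet1 fell in Nanog/Otx2 cells and rose from 6996 and 7484 to 15588, 17444 and 14354 in Nanog cells, a difference of -1.91 ± 0.32 (adjusted p = 0.00071). Il6st rose in Nanog cells from 882 and 1166 to 2235, 2351 and 1870, a difference of -1.33 ± 0.21 (adjusted p = 0.00048). Lef1, Tfap2c, Ccnd1, Dnmt1 and Etv5 were also lower in their response in Nanog/Otx2 cells, by 0.54 to 1.40, and Krt8, Sox3 and Pou5f1 were higher, by 0.69 to 1.44. For Sox3 the call was lost with the GC offset (adjusted p = 0.055), as were those for Pim3, Tcf7 and Mtf2 (adjusted p = 0.16, 0.13 and 0.37). By the rule for the largest differences the genes were Rpl30-ps9, Mir692-2b, Mir692-2a, AU022751 and Gdf1 (lower) and Rpl36a-ps3, Gm10395, Gm11824, RP23-445D13.2 and Gm4459 (higher). Most are pseudogenes or multi-copy loci whose reads are uncertain, and most have a group with at most 3 counts in every library, so no fold is given here.

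**Figure D5:**
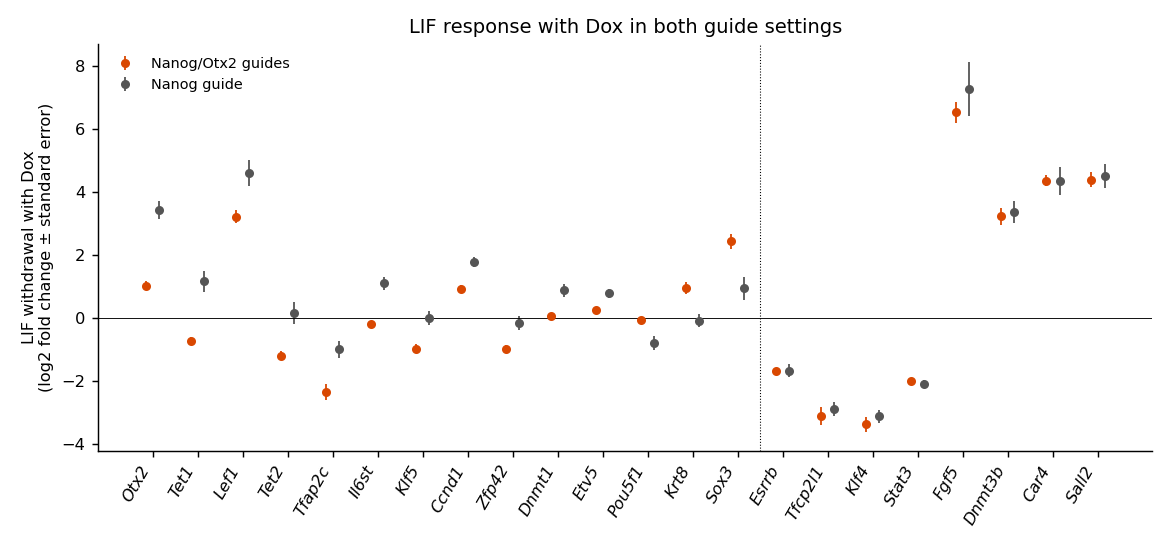
Log2 fold change on LIF withdrawal with Dox, with its standard error, in Nanog/Otx2 cells (orange) and in cells with the Nanog guide (grey) for 22 genes. Left of the dotted line are 14 genes with a called difference and right of it 8 without, chosen after their values were seen; Otx2 is 1.02 against 3.42, and Esrrb is -1.70 against -1.68.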

How the data were processed

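The deposited estimated counts were made by the authors, who aligned stranded reads to mm9 with STAR, estimated reads per gene with RSEM and rounded them to whole numbers. The deposited signal is these counts divided by the authors' DESeq2 size factor over 35 libraries, termed normalised counts here. There are 37620 genes in either table.

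The 15 Nanog/Otx2 libraries were fitted with LIF, Dox and their interaction in edgeR 4.0.16 (R 4.3.3, TMM, quasi-likelihood test), and a gene was tested where all libraries of some condition reached 10 normalised counts. All 26 SunTag libraries were fitted for the difference between the guides, and the 11 Nanog libraries alone for the Nanog cells. Genes with a Benjamini-Hochberg adjusted p under 0.05 over all tested genes were called. Nothing shows that libraries of a clone came from separate cultures, so p-values measure the spread between these libraries, which may in part be technical, and standard errors cover that and counting error.

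Libraries with the same clone and number came from the same cell line. Their deviations from the group means correlated at 0.31 to 0.43 in the 4 pairs with Dox and at 0.13 to 0.55 in 21 pairs over all conditions. With Dox, libraries of the same clone with different numbers correlated at 0.21, 0.11, 0.16 and 0.30, and those of different clones at -0.40 to -0.12. Taking deviations from means over both clones lowers the values between clones, so these cannot show a pairing by number. The replicate block pairs libraries by clone and number.

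Genes were named by a rule, which takes Nanog, Otx2, members of 22 gene lists, the 10 largest changes in each direction with Dox and the 5 largest in each direction for each difference. The largest changes were taken where the higher group's mean reached 100 normalised counts and, for the first, where the groups did not overlap. Not all of them are given, and some are not reported here. Genes whose lower group had at most 3 counts in every library got no fold. The comparison and the lists were chosen with earlier results of these data known.

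Alternatives were DESeq2 1.42.0, other scaling and filters, each library left out, single clones and blocks. The GC offset (20 bins) and a block with the column numbers were added after seeing the data. In simulated counts with a log2 fold change of 1 in 200 genes, edgeR recovered 85.5% of them for LIF withdrawal with Dox over 15609 genes, 52.5% for the difference between Dox settings, 16% in the Nanog cells and 30.5% for the difference between guides over 16210 genes. False calls numbered 14, 2, 4 and 7 in the same order. The changed genes were drawn above a minimum mean count, so recovery of genes with low counts was not measured. Guides were matched to the reference genome of mm9. Pou3f1 has more than 1 identifier in the tables and Mir692-2a shares its values with Mir692-2b, so both are uncertain.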

Additional observations from a re-analysis of the deposited data

Results flagged for a closer look

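Differences of the LIF response between the Dox settings in Nanog/Otx2 cells were called for 53 of 114 genes looked at, and are log2 differences, with Dox minus without Dox. Over all tested genes 9.7% were called. The 114 genes include those picked for the largest differences in these data, so this count is raised by the choice and is no rate. The largest, with a higher response with Dox, were for Gm5148 (6.98), Gm17494 (5.99), Col14a1 (4.54), Gm16627 (4.47), Gjb1 (4.13), Nr0b1 (3.36), Zfp42 (3.33), Tcl1 (3.24), Esrrb (3.19), Ryr3 (3.17), Shisa2 (2.70), Prdm14 (2.63), Ccnd2 (2.63), Tet2 (2.62) and Porcn (2.55). Smaller ones were for Klf2 (2.50), Mapt (2.44), Klf5 (2.38), Lifr (2.12), Tfcp2l1 (2.11), Tbx3 (2.10), Fbxo15 (2.08), Nanog (2.00), Bmp4 (1.90), Zeb1 (1.77), Pfkp (1.71), Klf4 (1.56), Lef1 (1.33) and Il6st (1.07). The smallest were for Mybl2 (1.05), Vim (0.99), Tet1 (0.85), Tubb3 (0.79), Nodal (0.77), Mtf2 (0.76), Ccnd1 (0.74), Eed (0.74), Etv5 (0.71) and Stat3 (0.65). Responses lower with Dox were found for Abcc8 (-3.95), Chst1 (-3.45), Calcr (-3.43), AU022751 (-2.50), Fst (-1.50), Dusp4 (-1.40), Krt18 (-1.39), Otx2 (-1.02), Krt8 (-0.998) and Tcf7 (-0.48). A group at no more than 3 counts in every library leaves Cdx1 (0.033), Serpinb1a (0.032), Pde4b (0.0093) and Shisa6 (0.0024) with an adjusted p only, given in parentheses.

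Differences of the LIF response with Dox between Nanog/Otx2 and Nanog cells were called for 27 of these genes, where 12.3% of all tested genes were called. The choice of genes raises this count too. The response was lower in Nanog/Otx2 cells for Otx2 (-2.44), Tet1 (-1.91), Lef1 (-1.40), Tet2 (-1.39), Tfap2c (-1.37), Il6st (-1.33), Klf5 (-1.003), Mtf2 (-0.90), Ccnd1 (-0.88), Zfp42 (-0.84), Dnmt1 (-0.83) and Etv5 (-0.54), again on the log2 scale. It was higher for Gm11824 (9.29), Gm4459 (6.15), Sox3 (1.44), Krt8 (1.01), Pou5f1 (0.69), Pim3 (0.60) and Tcf7 (0.49). Only an adjusted p is given for Gdf1 (0.0296), Mir692-2b (0.018), Mir692-2a (0.018), Gm10395 (0.011), RP23-445D13.2 (0.0045), Rpl30-ps9 (0.00092), AU022751 (0.00065) and Rpl36a-ps3 (9.8e-05), for the same reason. The value of Gm11824 rests on 1 library, the C1-1 library with LIF and Dox of the Nanog cells, with 2259 counts against 14 in C2-1. In the Nanog cells the name prefix of the libraries changes with LIF, which applies to each of these values.

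Single libraries stood apart from the other 3 of their group in 15 of 342 combinations of gene and group, where chance alone gives about 1 in 20. Values are normalised counts. With LIF and Dox, C1ON3-1 was high for Trpm1 (253), C1ON3-2 was high for Igfbp7 (223) and Gm16627 (40.7), and C2ON3-2 was low for Sox3 (17.8) and Spon1 (7.12). Among the libraries without LIF with Dox, C1ON3-1 was high for Cdh1 (17418) and Pde4b (98.8) and low for Klf5 (1410) and Zeb1 (43.8). In the same group C1ON3-2 was high for 2310043M15Rik (12.8), C2ON3-1 was high for Gjb1 (25.4), and C2ON3-2 was high for Utf1 (10367) and Cxcl12 (704). Without LIF and Dox, C1ON3-1 was low for Dnmt3b (78562) and RP23-445D13.2 (8.02).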

How the results depend on the processing

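Of the 95 genes named for LIF withdrawal with Dox, none reversed under any of the alternatives run. A test against a 2-fold change (log2 of 1) called 629 genes, 369 up and 260 down, and lost the call of 38 named genes. DESeq2 called 6134, of which 5630 were shared with edgeR. The replicate block gave 8098 calls for LIF withdrawal with Dox, and changed the call there for Nr0b1 and Porcn but for no other named gene, while in the 8 libraries with Dox alone it also called Il6st and Sox2. For the difference between the Dox settings it gave 3407, the clone block 2887, the GC offset with the replicate block 3556 and the block with the column numbers 3331. The last was run because the C2ON3 library with LIF and without Dox has number 1 in its title and 2 in its column. Its deviations correlated at 0.23 and 0.13 with the C2ON3-1 libraries with Dox and at 0.35 and 0.24 with the C2ON3-2 ones. The replicate block also called this difference for Pim3, Sox2, Sox3, Sox11, Pax6, Hnf4a, Tfap2c, Fzd2, Fzd5, Ccnd3 and Dazl. For the difference between the guides the replicate block gave 3065, the clone block 3265 and the GC offset with the replicate block 4070, and the replicate block also called Dnmt3a and Sox11. The cause of these shifts was not tested.

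Leaving out 1 library at a time gave 4890 to 5204 calls for LIF withdrawal with Dox, 6658 to 7577 without Dox and 875 to 1843 for the difference between Dox settings. It gave 2371 to 4329 calls in the Nanog cells and 536 to 2723 for the difference between guides. The lowest of the last 3 came without the C1ON3-2 library with LIF and without Dox and, for both others, without the C1-1 library with LIF and Dox. Depth limits genes of low counts, above all in the shallowest library, and the Nanog cells have only 2 libraries with LIF and Dox.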
